A study of Mus musculus with 24 samples.

Results

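Mast cells are tissue leukocytes that carry IgE on a high-affinity receptor and store proteases and histamine in granules. In the rodent gut they depend on stem cell factor, read by the receptor tyrosine kinase Kit, and on the transcription factors Gata2 and Mitf, and they settle in the mucosa and in the deeper connective tissue. Mucosal mast cells are known for the chymases Mcpt1 and Mcpt2, and connective tissue mast cells for Mcpt4, Cma1, Cpa3 and the tryptases. The 9 genes described here are Ms4a2, Tpsb2, Cpa3, Mcpt1, Mcpt2, Mcpt4, Cma1, Hdc and Kit, of 36528 gene rows in each library's table. They were picked by name as mast cell genes with their values in these libraries known. Ms4a2 and Tpsb2 were lower in all diphtheria toxin (DT) than in all saline libraries of the same time. The libraries of the other 7 genes overlapped between treatments, and some of these genes had too few reads to show whether they changed. Their differences between DT and saline libraries are therefore given as descriptions, with no test.

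The libraries came from tumours of the mouse small intestine of the AKVPL genotype, which every group carried. In the published model of that name, as background, a Cre is driven by the Villin promoter of gut epithelium and an Lgr5 allele carries the DT receptor, so that DT kills cells expressing that allele. Treatment was saline or DT, with cells sorted at 24, 48 or 96 h, which gave 6 groups of 4 libraries of polyA RNA, called saline and DT at each time. EpCAM, a protein on the surface of epithelial cells, is part of the sample names, and the labels call the sort bulk. The labels give no age, and do not say whether the libraries of a group came from separate animals, and what a p-value measures here is the variation from library to library, which can be purely technical.

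Libraries held 10888654 to 27707554 reads counted on genes. Levels are given as CPM, counts scaled to a common library size. Lgr5, the stem cell receptor gene whose allele carries the toxin receptor, stood at 200 ± 16.9 CPM (SD, n = 4) with saline and 81.4 ± 3.72 with DT at 24 h. It fell at all 3 times, by 1.30 ± 0.12 at 24 h, 0.60 ± 0.12 at 48 h and 0.43 ± 0.12 at 96 h in log2 units (SE; adjusted p by edgeR's quasi-likelihood test = 4.44e-08, 0.00272 and 0.0447). The call at 96 h was lost when any 1 of its 8 libraries was left out (adjusted p from 0.0612 to 0.152). DT 48 h replicate 3 stood apart, with Lgr5 at 171 CPM against 95.4 to 117 in the other DT libraries of that time and 164 to 198 with saline, so the 48 h values of Lgr5 and the 9 genes are given with and without it. Without it the fall of Lgr5 at 48 h was by 0.80. That value is a description with no test, since leaving out a library for its high Lgr5 makes the fall larger. Epcam lay between 1240 and 1645 CPM in all libraries and the leukocyte gene Ptprc between 1.54 and 12.4 CPM. The fibroblast collagen gene Col1a1 lay between 967 and 4184 CPM. Per length, on the scale of the deposited RPKM, Col1a1 lay between 181 and 778 and Epcam between 539 and 709, so the levels overlapped. In these bulk libraries fewer cells of a type and less RNA per cell cannot be told apart.

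Levels can be compared between genes only per transcript length, and the deposited normalized RPKM (reads scaled by transcript length and library size with a size factor) allow that. Over the 12 saline libraries Tpsb2 was the most abundant of the 9 genes at 13.7 ± 3.69 RPKM (SD, n = 12), followed by Kit at 8.39 ± 2.54 and Ms4a2 at 6.18 ± 1.93. Hdc stood at 1.75 ± 0.609, Mcpt1 at 1.47 ± 0.542 and Mcpt2 at 1.37 ± 0.616 RPKM. Mcpt4 at 0.405 ± 0.352, Cma1 at 0.308 ± 0.267 and Cpa3 at 0.272 ± 0.244 RPKM closed the order. The means of Kit and Ms4a2 differed by less than the SD of Kit, and those of Hdc, Mcpt1 and Mcpt2, like those of Mcpt4, Cma1 and Cpa3, differed by less than the SD of any of the 3. Fcer1a, which encodes the IgE-binding α chain that the receptor complex needs beside the β chain of Ms4a2, held 0 to 6 reads in a library. Gata1, a transcription factor of the mast cell lineage, held 0 or 1 read.

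Ms4a2 encodes the β chain of FcεRI, the receptor that binds IgE on mast cells and basophils, and lies at chr19:11615517-11623790 among the MS4A genes (RefSeq coordinates, GRCm38.p6). At 24 h its level was 28.5, 35.8, 17.9 and 14.3 CPM in the 4 saline libraries and 0, 0.387, 0.0370 and 0.538 CPM in the 4 DT libraries. The raw reads behind the DT values were 0, 11, 1 and 11, and a count of 0 in replicate 1 allows up to 0.257 CPM (3 reads, counting error only). Every DT library lay below every saline library, and the DT mean was 0.996% of the saline mean. The fitted difference was -6.49 ± 0.84 (log2 fold change, SE), the lowest of 17468 genes tested. Of those genes 38.7% passed an adjusted p of 0.05 at 24 h and 16.2% had all DT libraries below all saline libraries, and 0.195% had a log2 fold change of -3 or lower.

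At 48 h Ms4a2 stood at 23.7, 18.9, 14.4 and 15.7 CPM with saline and at 0.361, 0.537, 4.83 and 0.0714 CPM with DT. The groups did not overlap, and the highest DT value belonged to replicate 3, the library with Lgr5 in the saline range. The DT mean was 7.98% of the saline mean with that library and 1.78% without it, and the log2 fold change was -3.79 ± 0.69 with it and -6.09 without it. At 96 h the levels were 18.6, 16.6, 23.6 and 23.6 CPM with saline and 0.666, 0.0491, 3.25 and 0.513 CPM with DT. The groups again did not overlap, and the DT mean was 5.44% of the saline mean, with a log2 fold change of -4.46 ± 0.72. Background shares with all DT libraries below all saline libraries were 8.65% of genes at 48 h and 6.7% at 96 h, and the shares passing an adjusted p of 0.05 were 11.3% and 4.03%. Ranked from the lowest log2 fold change, Ms4a2 was number 3 at 48 h and number 1 at 96 h.

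Tpsb2 encodes a tryptase of the mast cell granule (mouse mast cell protease 6 in the older naming) and lies at chr17:25366308-25368096, in the tryptase locus. At 24 h its level was 24.9, 26.7, 19.8 and 13.6 CPM with saline and 0.685, 4.22, 1.59 and 2.25 CPM with DT. No DT library reached the lowest saline library, and the DT mean was 10.3% of the saline mean. At 48 h it stood at 16.7, 15.7, 15.9 and 17.8 CPM with saline and at 1.5, 1.16, 10.1 and 1.36 CPM with DT. Replicate 3 again held the highest DT value, and the DT mean was 21.4% of the saline mean with it and 8.11% without it. At 96 h the saline libraries held 16.2, 11.6, 22.7 and 13.2 CPM and the DT libraries 1.29, 2.01, 4.19 and 2.25 CPM, a DT mean of 15.3% of the saline mean with no overlap. The log2 fold changes were -3.18 ± 0.53 at 24 h, -2.26 ± 0.52 at 48 h (-3.58 without replicate 3) and -2.79 ± 0.55 at 96 h, the smallest in size of the changes that put a gene among the lower ones. The next gene of the 9, on the other side of that division, was Cma1 at 96 h with -1.07 ± 1.09, where the libraries overlapped.

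**Figure D1:**
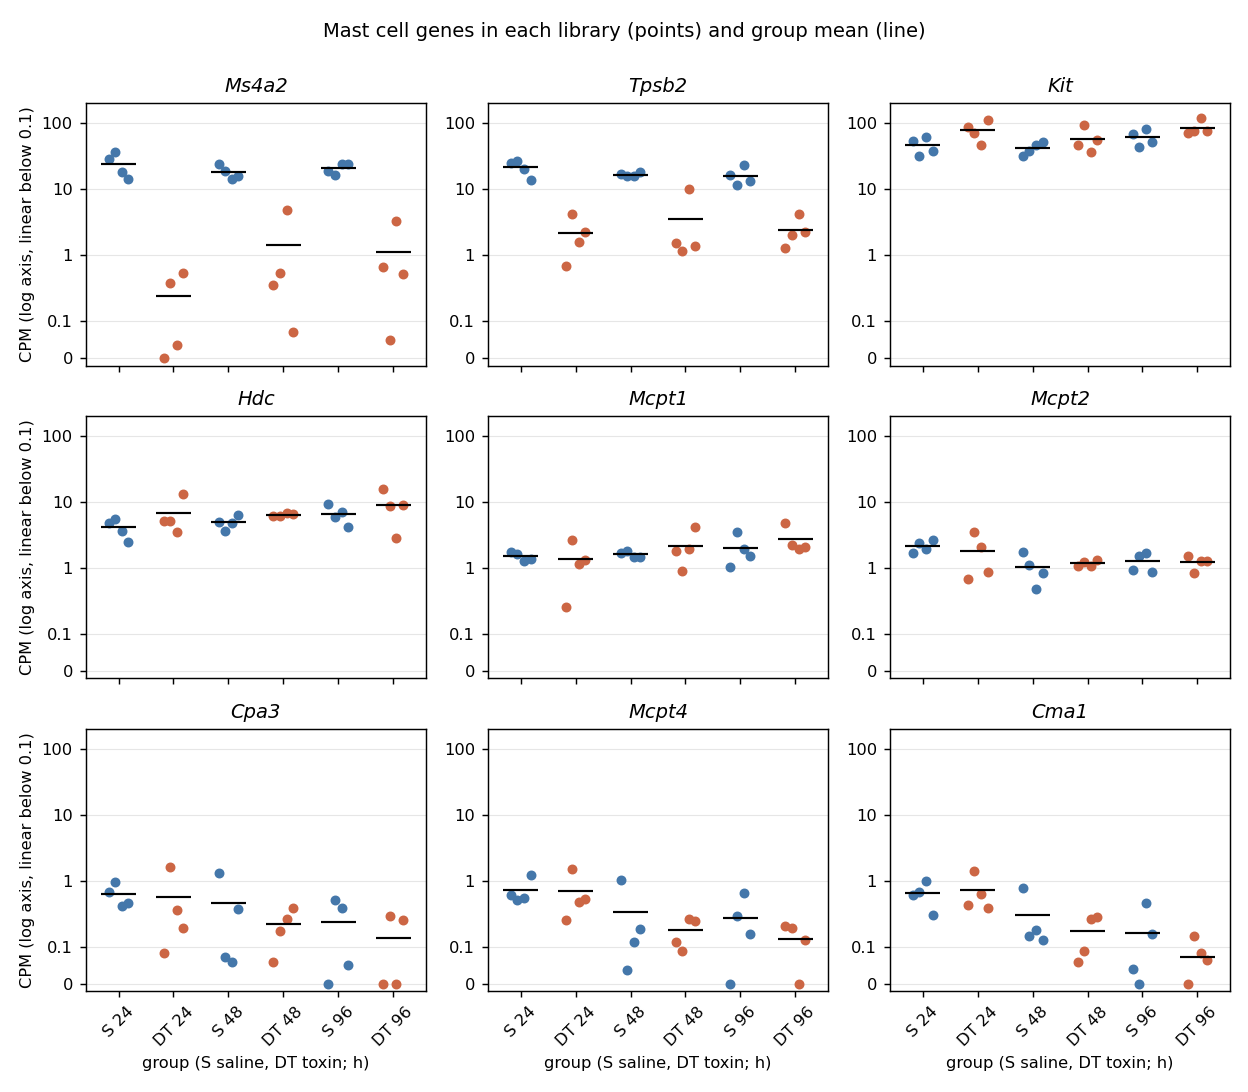
Level of each of the 9 genes in CPM (log axis, linear below 0.1) in 24 libraries, by treatment and time; points are libraries and lines are means of 4. The DT points of Ms4a2 and Tpsb2 lie below all saline points at each time, while the points of the other 7 genes overlap.

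The DT libraries kept less Ms4a2 than Tpsb2. The ratio of their deposited RPKM, Ms4a2 over Tpsb2, ran from 0.338 to 0.690 over the 12 saline libraries with a median of 0.442. In the DT libraries it ran from 0 to 0.299 with a median of 0.0900. No DT library reached the lowest saline ratio. In the fitted values Ms4a2 had the lower log2 fold change at each time.

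Kit encodes the receptor for stem cell factor, which keeps mast cells alive and is also found on interstitial cells of Cajal, melanocytes and some gut epithelial cells. It lies at chr5:75574987-75656722. At 24 h it stood at 52.3, 31.6, 61.4 and 36.9 CPM with saline and at 86.4, 71.3, 45.6 and 110 CPM with DT. The DT mean was higher, the libraries overlapped, and the log2 fold change was 0.77 ± 0.30. At 48 h the values were 31.1, 37.9, 46.6 and 50.7 CPM with saline and 45.6, 91.5, 36.1 and 55.9 CPM with DT. The 96 h libraries held 67.7, 42.4, 80.9 and 51.0 CPM with saline and 71.1, 74.2, 117 and 76.4 CPM with DT. Both later times overlapped as well, with log2 fold changes of 0.46 ± 0.30 (0.64 without DT 48 h replicate 3) and 0.48 ± 0.30.

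Hdc encodes histidine decarboxylase, which makes histamine and is also active in enterochromaffin-like cells of the stomach and in basophils. It lies at chr2:126593659-126624025. At 24 h it stood at 4.86, 5.55, 3.60 and 2.47 CPM with saline and at 5.14, 5.24, 3.47 and 13.2 CPM with DT, so that 1 DT library lay above all others. The log2 fold changes were 0.71 ± 0.42 at 24 h, 0.38 ± 0.40 at 48 h (0.37 without replicate 3) and 0.47 ± 0.39 at 96 h, and the libraries overlapped at each time. Without DT replicate 4 the value at 24 h was 0.15.

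Cma1, Mcpt1, Mcpt2 and Mcpt4 encode chymases of the granule and lie within 120.9 kb of each other, at chr14:55941451-56062310. Cpa3, at chr3:20215616-20242209, encodes carboxypeptidase A of the granule and is among the most abundant transcripts of mature mast cells. Mcpt1 and Mcpt2, the mucosal chymases, were present in every library with at least 3 reads. Mcpt1 averaged 1.51 ± 0.218 CPM with saline and 1.36 ± 1.01 with DT at 24 h, 1.61 ± 0.177 and 2.20 ± 1.38 at 48 h, and 1.99 ± 1.08 and 2.77 ± 1.35 at 96 h (SD, n = 4). Its log2 fold changes were -0.05 ± 0.49, 0.52 ± 0.45 and 0.56 ± 0.45, close to or below their SE. Without DT 24 h replicate 2 the value at 24 h was -0.62, and at 48 h it was 0.60 without DT replicate 3 and -0.04 without DT replicate 4. Mcpt2 averaged 2.18 CPM with saline and 1.79 with DT at 24 h, 1.05 and 1.18 at 48 h, and 1.27 and 1.23 at 96 h. Its log2 fold changes were -0.20 ± 0.37, 0.13 ± 0.41 (0.19 without DT 48 h replicate 3) and -0.02 ± 0.41, and the value at 24 h was -0.74 without DT replicate 2.

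The connective tissue granule genes Cpa3, Mcpt4 and Cma1 were close to the limit of detection. At 24 h Cpa3 held 10, 13, 6 and 6 reads in the saline libraries and 1, 47, 10 and 4 reads in the DT libraries. In CPM these were 0.694, 0.975, 0.423 and 0.462 with saline and 0.0857, 1.65, 0.370 and 0.196 with DT, so DT replicate 2 lay above all 4 saline libraries. Mcpt4 and Cma1 had the same DT library highest at 24 h, with 43 and 41 reads. The log2 fold changes of Cpa3, Mcpt4 and Cma1 at 24 h were 0.03 ± 0.81, 0.04 ± 0.65 and 0.23 ± 0.57, and without that library they were -1.35, -0.70 and -0.39, so the direction at 24 h rested on 1 library. At 48 h saline replicate 1 held 32 of the 41 saline reads of Cpa3, 25 of the 31 of Mcpt4 and 19 of the 28 of Cma1. The log2 fold changes of Cpa3, Mcpt4 and Cma1 at 48 h were -0.95 ± 0.98, -0.88 ± 0.88 and -0.75 ± 0.76, and 0.64, 0.87 and 0.33 without that library. Without DT 48 h replicate 3 they were -0.96, -1.02 and -0.89. At 96 h the DT libraries held 10, 11 and 5 reads of these genes in all. Their log2 fold changes at 96 h were -0.51 ± 1.31, -0.68 ± 1.02 and -1.07 ± 1.09. At 48 and 96 h the differences of these 3 genes were close to or below their SE, and at 96 h they reached 0.18 for Cpa3 without saline replicate 2 and 0.26 and 0.0227 for Mcpt4 and Cma1 without saline replicate 3.

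**Figure D2:**
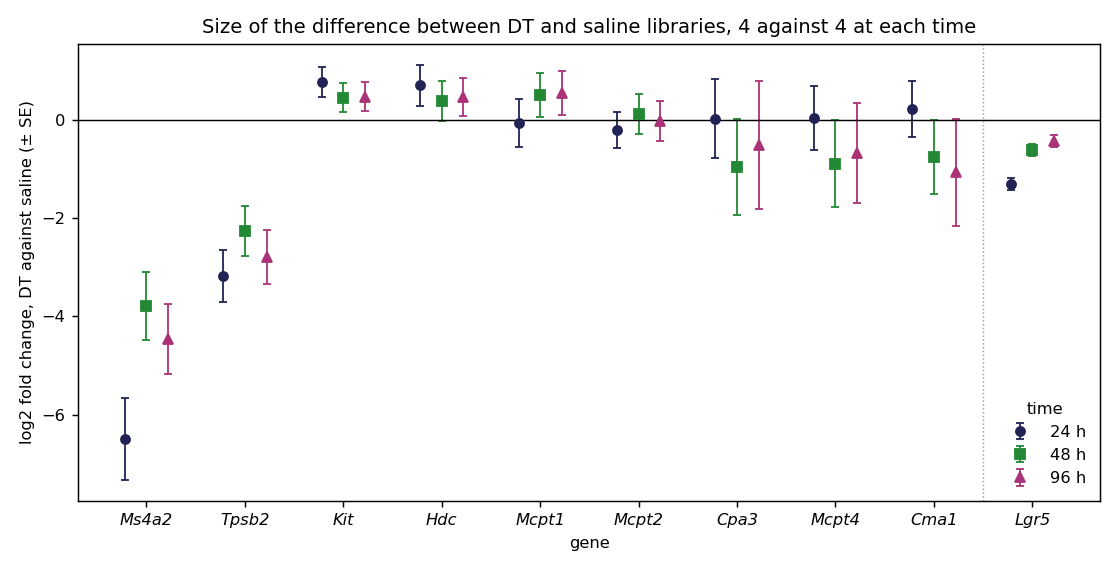
Log2 fold change of each gene between DT and saline libraries, 4 against 4, at 24, 48 and 96 h; bars are SE of the edgeR fit. Ms4a2 (-6.49, -3.79 and -4.46) and Tpsb2 (-3.18, -2.26 and -2.79) lie apart from the other 7 genes, and Lgr5 is shown at the right.

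Differences between the saline libraries of different times played no part in the choice of the genes, so the 9 genes were tested there. Of 9, 0 passed an adjusted p of 0.05 between saline at 48 and 24 h, 96 and 24 h, or 96 and 48 h (edgeR quasi-likelihood, Benjamini-Hochberg over 17468 genes), and DESeq2 called 0 in each. The counts at an unadjusted p under 0.05 were 1, 1 and 0. The shares of all genes called were 0.355%, 3.22% and 0.0114%. Cma1 had the smallest adjusted p, 0.141, at 96 against 24 h, with a log2 fold change of -2.03 ± 0.75 and means of 0.165 and 0.649 CPM. Mcpt2 had the next smallest unadjusted p, at 48 against 24 h, with a log2 fold change of -1.0 ± 0.39 and an adjusted p of 0.374. Ms4a2 and Tpsb2 differed by at most 0.42 on the log2 scale between saline times, with adjusted p from 0.696 to 1.0. Against this the macrophage markers C1qa, C1qb, C1qc, Adgre1 and Lyz2 fell from 24 to 96 h of saline, 5 of 8, as did the leukocyte markers Laptm5, Tyrobp and Ptprc, 3 of 6, where 1.13% of all genes fell and 2.09% rose. The endothelial markers Emcn, Pecam1, Kdr and Cdh5, 4 of 4, and the fibroblast marker Dcn, 1 of 8, rose in the same comparison. These calls depended on single libraries. With each library left out in turn, 0 to 5 of the 8 macrophage and 0 to 2 of the 6 leukocyte markers fell, and 0 to 4 of the 4 endothelial and 0 to 7 of the 8 fibroblast markers rose. Without saline 96 h replicate 2, 0 markers of the 4 lists were called (smallest edgeR adjusted p from 0.0525 to 0.0946). The 7 fibroblast calls came without saline 96 h replicate 1.

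The libraries with the highest granule gene levels were also those with high macrophage markers. Summed over Cpa3, Mcpt4, Cma1 and Tpsab1, the level was 5.97 CPM in DT 24 h replicate 2, whose 8 macrophage markers summed to 541 CPM, the highest of the 24 libraries in both. Saline 48 h replicate 1 held 3.69 CPM with 422 CPM of macrophage markers, against 0.371 to 0.768 CPM with 185 to 217 CPM in the other saline libraries of that time. DT 24 h replicate 1 held 0.771 CPM with 214 CPM, the lowest of its group in both. DT 48 h replicate 1 went against this, with 0.361 CPM of granule genes and 314 CPM of macrophage markers. Ms4a2 stood at 0.387 CPM in DT 24 h replicate 2 and at 18.6 CPM in saline 96 h replicate 1. The macrophage sum of the latter, 139.9 CPM, was the lowest of all. Since Ms4a2 was picked as lower with DT, its split by treatment was set by that choice. Whether leukocytes carried into the sort set the levels of the granule genes or of Ms4a2 was not tested.

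**Figure D3:**
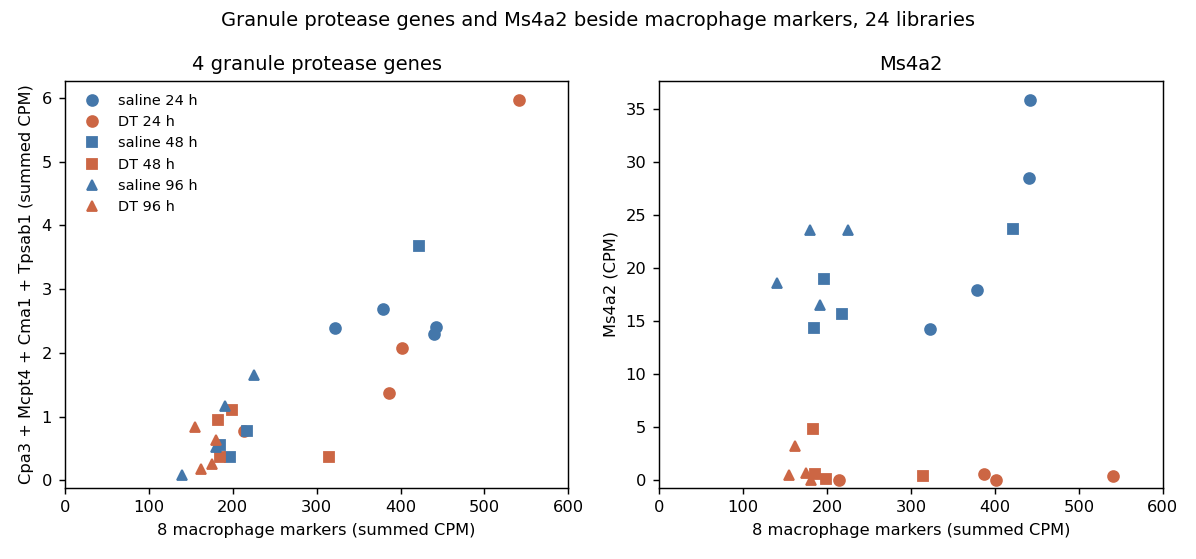
Left, summed CPM of Cpa3, Mcpt4, Cma1 and Tpsab1 in each of 24 libraries against the summed CPM of 8 macrophage markers; right, Ms4a2 CPM against the same sum. The granule genes are highest (5.97 CPM) where the macrophage markers are (541 CPM). Ms4a2, picked as lower with DT, splits by treatment.

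Ms4a2 and Tpsb2 were also read beside Lgr5. The 3 DT libraries at 48 h with Lgr5 from 95.4 to 117 CPM had Ms4a2 at or below 0.537 CPM and Tpsb2 at or below 1.5 CPM. The fourth, with Lgr5 at 171 CPM, had 4.83 and 10.1 CPM, both below the lowest saline library of that time. At 24 h the DT libraries did not follow Lgr5: replicate 1, with Lgr5 at 84.1 CPM, had the lowest Ms4a2 and Tpsb2, and replicate 4, with Lgr5 at 79.6 CPM, the highest Ms4a2. At 96 h replicate 3 had the highest Lgr5 of the DT libraries, 135 CPM against 123 to 125, and the highest Ms4a2 and Tpsb2, 3.25 and 4.19 CPM. Among saline libraries, the one with the highest Lgr5 had the lowest Ms4a2 and Tpsb2 at 24 and 96 h. At 48 h it had the highest Ms4a2 but not the highest Tpsb2. Whether either gene follows Lgr5 from library to library was not tested. Lgr5 kept 40.7%, 66.1% and 74.0% of its saline mean at 24, 48 and 96 h, where Ms4a2 kept 0.996%, 7.98% and 5.44%.

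**Figure D4:**
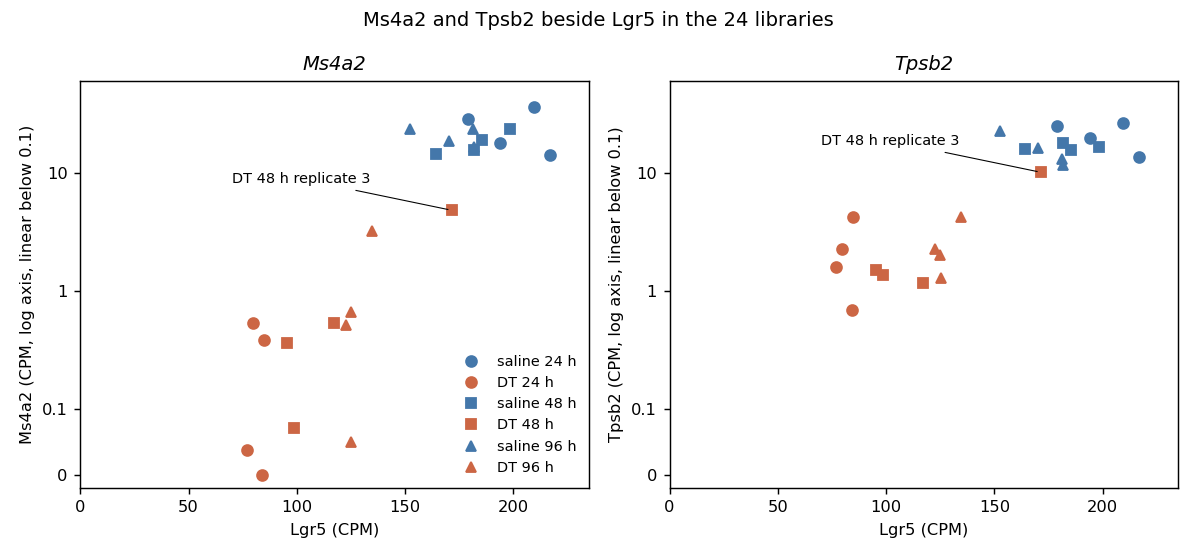
Ms4a2 (left) and Tpsb2 (right) in CPM, on a log axis that is linear below 0.1, against Lgr5 CPM in each of 24 libraries. DT 48 h replicate 3, at 171 CPM of Lgr5, has the highest Ms4a2 and Tpsb2 of the 12 DT libraries, and the saline libraries form a separate group.

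The remaining mast cell genes came from 6 lists of 56 genes: other granule proteases, the IgE receptor and its signalling, amine and lipid mediators, surface receptors, transcription factors, and growth and recruitment factors. Of 39 that could be tested, 2 rose and 6 fell at 24 h, 1 rose and 1 fell at 48 h, and 0 rose and 3 fell at 96 h. Of all genes 19.9% rose and 18.9% fell at 24 h, 4.83% and 6.5% at 48 h, and 1.01% and 3.02% at 96 h. Their median log2 fold changes were -0.07, -0.13 and -0.05, and those of all genes were -0.0036, -0.0019 and -0.0059. Several of the genes that moved, such as Syk, Tgfb1 and Bhlhe40, are expressed by many cell types.

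Tpsg1, a membrane-anchored tryptase that lies next to Tpsb2, fell from 3.37 ± 1.17 to 0.902 ± 0.277 CPM at 24 h, a log2 fold change of -1.96 ± 0.26 (edgeR adjusted p = 2.74e-06). Its differences at 48 and 96 h were -0.68 ± 0.25 and -0.38 ± 0.25 (edgeR adjusted p = 0.0814 and 0.519). Tpsab1, the other mast cell tryptase gene, annotated in RefSeq as a transcribed pseudogene, held 0 to 39 reads in a library and had too few for the test. Of the IgE receptor list, Syk, the kinase that the receptor activates, fell by 0.52 ± 0.12 at 24 h and by 0.67 ± 0.12 at 96 h (edgeR adjusted p = 0.00181 and 0.00185). Fcer1g, the shared γ chain of Fc receptors, averaged 3.37 CPM with saline and 4.2 with DT at 24 h, and the other 6 tested members of that list, like it, passed in edgeR at none of the 3 times. Of the 10 mediator genes, Alox5, the lipoxygenase of leukotriene synthesis, fell by 0.83 ± 0.32 at 24 h (edgeR adjusted p = 0.0419). Leaving out replicate 1 or 4 of saline, or 1, 3 or 4 of DT, ended that call (adjusted p from 0.0847 to 0.181). Slc18a2, the vesicular monoamine transporter, rose by 0.77 ± 0.20 at 48 h (edgeR adjusted p = 0.0153, and 0.0518 and 0.0739 without saline and DT replicate 4).

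Of 8 surface receptor genes tested, Cd33, a sialic acid-binding lectin, fell by 0.80 ± 0.25 at 48 h (edgeR adjusted p = 0.0389). Leaving out replicate 1 or 2 of saline, or 1, 2 or 4 of DT, ended it (from 0.0569 to 0.187). At 24 and 96 h 0 surface receptor genes were called by edgeR or DESeq2 (2 and 1 at an unadjusted p under 0.05). Gata2, a transcription factor that mast cells need, stood at 30.9 CPM with saline and 17.3 with DT at 96 h, and fell by 0.85 ± 0.23 (edgeR adjusted p = 0.0385), a call lost when any library other than saline replicate 2 was left out (from 0.0649 to 0.140). Bhlhe40, a factor with broad expression, fell at 24 h by 0.27 ± 0.09 (edgeR adjusted p = 0.0257, from 0.0560 to 0.0826 without DT replicate 1, 2 or 4) and at 96 h by 0.42 ± 0.09 (0.00947). Mitf, Tal1, Spi1, Stat5a and Stat5b did not pass at any of the 3 times. Among growth factors Tslp, an epithelial cytokine, rose from 0.289 to 1.2 CPM at 24 h (log2 fold change 2.02 ± 0.45, edgeR adjusted p = 9.07e-04) and the alarmin Il33 by 0.46 ± 0.13. Kitl, the ligand of Kit, fell by 0.36 ± 0.13 at 24 h (edgeR adjusted p = 0.0294, from 0.0535 to 0.103 without saline replicate 1 or DT replicate 1, 2 or 3). Tgfb1, a cytokine made by many cells, fell by 0.45 ± 0.15 (0.0229, and 0.0626 and 0.0536 without DT replicates 1 and 4).

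Markers of other cells were set beside these results. Of 35 tested, 4 rose (Krt18, Krt19, Dcn and Pdgfra) and 2 fell (Epcam and Cdh1) at 24 h, and 0 were called by edgeR at 48 or 96 h (4 and 1 at an unadjusted p under 0.05, and 1 and 0 by DESeq2). Among all genes tested 19.9% rose and 18.9% fell at 24 h, and 11.3% and 4.03% were called at 48 and 96 h. Dcn, a fibroblast proteoglycan, stood at 40.5 CPM with saline and 78.8 with DT at 24 h, and its call was lost without saline replicate 4 or DT replicate 2 (adjusted p = 0.0548 and 0.0630). The call of Pdgfra was lost without any library but saline replicate 1 and DT replicates 2 and 3 (up to 0.229), and that of Cdh1 without any but replicate 3 of each group (up to 0.156). The 8 macrophage markers summed to 322 to 442 CPM with saline and 214 to 541 CPM with DT at 24 h, 185 to 422 and 183 to 314 at 48 h, and 140 to 225 and 155 to 181 at 96 h. The 6 leukocyte markers summed to 43.3 to 64.3 CPM with saline and 27.0 to 84.7 CPM with DT at 24 h. They overlapped between treatments at the later times too, with 21.6 to 64.6 and 22 to 34.1 CPM at 48 h and 15.1 to 38.2 and 18.3 to 30.2 CPM at 96 h. Mcpt8, the basophil protease, averaged 0.674 CPM with saline and 0.539 with DT at 24 h, and 1.01 and 1.63 CPM at 96 h.

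Both lower genes lie in clusters of related genes, so their neighbours were examined. Of 17 listed MS4A genes, which encode tetraspan membrane proteins of haematopoietic and other cells, 7 were tested beside Ms4a2. Ms4a4d rose at 24 h from 1.46 to 3.70 CPM (log2 fold change 1.38 ± 0.41, edgeR adjusted p = 0.00965), and 0 were called at 48 or 96 h by edgeR or DESeq2 (1 and 1 at an unadjusted p under 0.05). Within 250 kb of Ms4a2, measured between first annotated bases, 28 genes lie and 8 were tested. Cblif, the gene for gastric intrinsic factor at chr19:11747543-11763447, was the only one of the 8 that fell, and it did so at all 3 times. Its level went from 2.86 to 0.442 CPM at 24 h, from 2.17 to 0.439 at 48 h and from 3.02 to 0.341 at 96 h, with log2 fold changes of -2.59 ± 0.48, -2.43 ± 0.52 and -3.33 ± 0.54 (edgeR adjusted p = 1.70e-04, 0.00366 and 6.79e-04). Ms4a6d, the nearest tested neighbour at 28.9 kb, stood at 4.41 CPM with saline and 5.04 with DT at 24 h (edgeR adjusted p = 0.578). Ms4a3, Oosp2 and Oosp1, between Ms4a2 and Cblif, were near 0 and were not tested. At 24, 48 and 96 h Oosp2 averaged 0.184, 0.148 and 0.1246 CPM with saline and 0, 0 and 0.0104 CPM with DT. Oosp1 averaged 0.145, 0.223 and 0.239 against 0, 0 and 0.0214 CPM, and Ms4a3 0.0725, 0.00927 and 0.0848 against 0, 0 and 0.0214. Ms4a4c, untested on the other side of Ms4a2, went from 0.240 to 1.19 CPM at 24 h.

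Around Tpsb2, 31 genes lie within 250 kb and 17 were tested. At 24 h 2 rose and 5 fell, at 48 h 0 were called, and at 96 h Gnptg alone fell (lost without any library but saline replicate 1), while 18.9% of all genes tested fell at 24 h. Tpsg1, whose first base is 2.887 kb from that of Tpsb2, had the largest change of the 17 at 24 h. Cacna1h, a calcium channel gene whose end overlaps that of Tpsg1, fell by 0.45 ± 0.17 (edgeR adjusted p = 0.0400, from 0.0566 to 0.164 when replicate 1 or 3 of saline or 2, 3 or 4 of DT was left out). Reads from the overlap cannot be told apart, since the use of strand in counting is not given in the sources used here. Prss27, a serine protease of epithelia farther along the chromosome, went the other way at 24 h, from 0.587 to 3.98 CPM (log2 fold change 2.73 ± 0.39, edgeR adjusted p = 7.31e-06), and Prss22 rose by 0.49 ± 0.15 (0.0127, and 0.050 and 0.0682 without saline replicate 2 and DT replicate 3).

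**Figure D5:**
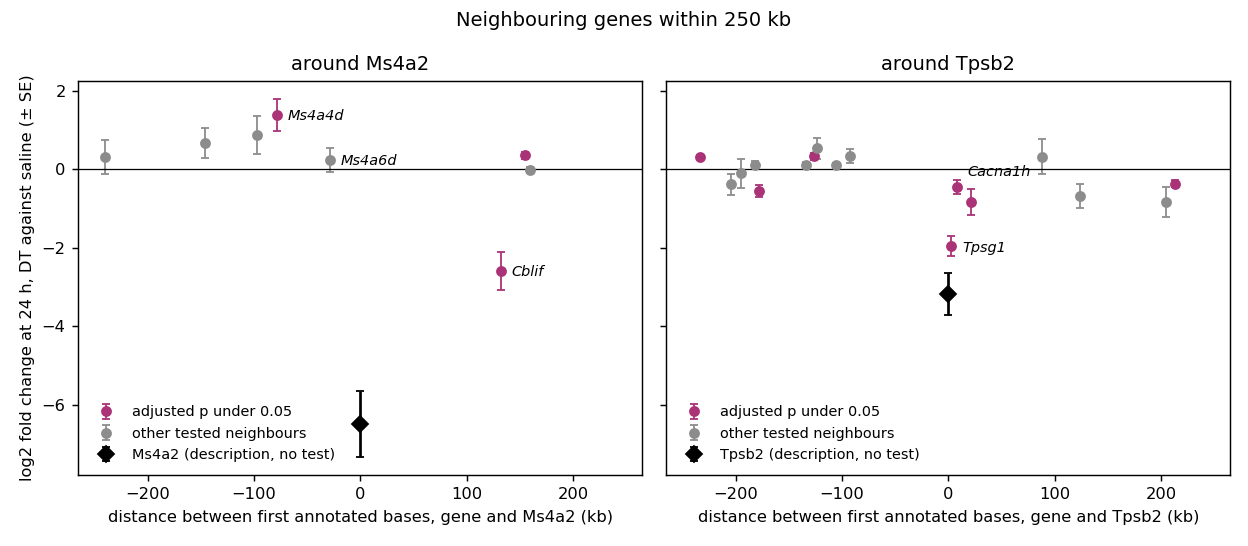
Log2 fold change at 24 h (± SE) of tested genes within 250 kb of Ms4a2 (left, 8 genes) and Tpsb2 (right, 17 genes), by distance in kb between first annotated bases. Cblif (-2.59) and Tpsg1 (-1.96) are the lowest neighbours, and the others lie between -0.84 and 1.38.

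Ms4a2 and the granule gene Cpa3 are textbook targets of GATA factors in mast cells, but only Ms4a2 was picked as lower with DT. Sequences upstream of the genes were therefore compared. Cpa3 had 0 to 47 reads in a library, and its difference from Ms4a2 was not tested. RefSeq's promoter table (GRCm38.p6, 250 bases before to 50 after a start) has an entry for 7 of the 9 genes, with none for Tpsb2 and Mcpt2. The GATA motif was searched on both strands as GATA with an A or T before it and an A or G after it, and 29.8% of 32851 windows hold at least 1 match. Ms4a2 has 3 matches, with first bases at -224, -37 and -11 from its start, and Cpa3, Cma1, Mcpt1, Mcpt4 and Hdc have 1 each, while Kit has 0. The windows below lie on the minus strand, upstream of all annotated starts (the Ms4a2 one at chr19:11623791-11623969, the Cpa3 one at chr3:20242210-20242431), with GATA matches on either strand in capitals.
Ms4a2 upstream: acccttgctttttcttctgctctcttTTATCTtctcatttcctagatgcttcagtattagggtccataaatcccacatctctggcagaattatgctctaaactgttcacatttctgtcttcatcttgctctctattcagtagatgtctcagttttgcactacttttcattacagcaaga
Cpa3 upstream: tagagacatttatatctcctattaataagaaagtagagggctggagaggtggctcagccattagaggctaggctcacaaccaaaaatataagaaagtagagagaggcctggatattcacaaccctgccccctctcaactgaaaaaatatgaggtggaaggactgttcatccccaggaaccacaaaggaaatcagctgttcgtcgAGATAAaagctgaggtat
The other 2 matches of Ms4a2 are closer to its start, at chr19:11623744-11623763 and chr19:11623718-11623737. Both lie within the annotated span of the gene, chr19:11615517-11623790.
Ms4a2 at -37: tggagacTTATCTgacaagt
Ms4a2 at -11: cgcatgaAGATAAtcattgg

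Motifs of T cell factors, the DNA-binding partners of β-catenin in Wnt signalling, were searched as CTTTGA or CTTTGT on both strands, and 31.2% of windows hold one. Ms4a2, Cma1 and Kit have 0, Cpa3 has 1, and Hdc, Mcpt1 and Mcpt4 have 2 each. The E-box CANNTG is in 72.3% of windows, and its forms with CG, CA or TG at the centre, which Mitf can bind, are in 20.4% of windows and in 0 of the 7 genes' windows. These matches are descriptions of letters in a window. They did not separate the lower gene Ms4a2 from the others except in the number of GATA matches. Of these, 1 lies upstream of all annotated starts of Ms4a2, as 1 does for Cpa3.

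Genes with a pattern like those of Ms4a2 and Tpsb2 were found by Pearson's r of log2(CPM + 0.5) over all 24 libraries. They were sought among 13513 genes with an assigned symbol and a mean of at least 1 CPM. The saline and DT libraries lie apart in it, and r is given only as the measure of likeness. For Ms4a2 they were Pnliprp2 (0.995) and Pnliprp1 (0.992), both relatives of pancreatic lipase, then C8b, Mat1a, Spock2, Mt3, Gulo and Slc44a5 (0.987 to 0.984). Pnliprp2 went from 734 to 9.91 CPM at 24 h, from 522 to 53.7 at 48 h and from 567 to 27.6 at 96 h. For Tpsb2 they were Mt3 (0.975), Pnliprp2 (0.972), Pnliprp1 (0.969), Ms4a2 (0.966), the Wnt inhibitor gene Wif1, Pik3ap1, Amy1 and Mat1a (0.966 to 0.962). Of these only Ms4a2 is among the 9 mast cell genes, which were picked with their DT differences known. Cpa3, Mcpt4 and Cma1 averaged under 1 CPM and could not enter the ranking. Within the 12 saline libraries alone, 0 of the 8 genes most like Ms4a2 and 0 of the 8 most like Tpsb2 were those found over all 24. In that saline order of 13513 genes, the 8 named for Ms4a2 ranked from 9 (C8b) to 775 (Mt3). Those named for Tpsb2 ranked from 17 (Mt3) to 1140 (Pik3ap1).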

How the data were processed

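PolyA RNA of sorted tumour cells was sequenced in 24 libraries, grouped from the labels into saline and DT at 24, 48 and 96 h with 4 libraries each. The authors deposited 1 table per library, with a count per gene and an RPKM value. Per the file headers, counts are of reads that align uniquely within gene models, and the RPKM carry a size-factor adjustment. GSNAP and GRCm38 are named in the submitters' processing notes, while for versions, annotation and strand the entry is: not given in the sources used here. Symbols and coordinates came from a RefSeq table of GRCm38.p6, matched by Entrez ID for 31049 genes (85.0%), including all genes listed here.

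Counts were tested with edgeR 4.0.16 (R 4.3.3): robust quasi-likelihood, TMM scaling, a low-count filter by group (17468 genes kept, all 9 mast cell genes among them), 1 fit of all 24 libraries, Benjamini-Hochberg adjustment over all genes, 2-sided, threshold 0.05. The SE was derived as log2 fold change divided by the root of F, and CPM use TMM library sizes, and the deposited RPKM served only for levels between genes. Precision is limited by depth (10888654 to 27707554 counts). Replicate pairs all differed beyond sampling noise (chi-square per degree of freedom at least 4.24), so none was a copy.

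The genes, the lists and the tests were chosen with earlier results of these data known. All 9 genes are named. Of each other list, up to 4 called genes per contrast by smallest p and defining genes near 0 are named, besides genes within 250 kb, the 8 most alike and Lgr5. Fcer1a, Gata1 and the other genes without enough reads were not tested. Sharing of 50-base stretches with transcripts of other genes reached 5.48% (Mcpt4 with Cma2) and 5.38% (Cma1) and was 2.10% for Ms4a2 and 0 for Tpsb2, so reads of Mcpt4 and Cma1 are slightly uncertain. DESeq2 1.42.0, other size factors, no filter, a replicate block, fits of the compared groups alone, a pseudocount of 0.5 and leaving out each library were tried. The edgeR procedure was tested on simulated data.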

Additional observations from a re-analysis of the deposited data

Results flagged for a closer look

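Of the 54 combinations of a gene and a group, 7 held a library set apart from the other 3 by more than Dixon's 95% limit allows, and chance alone gives about 1 such group in 20. DT 48 h replicate 3 was far above its group for Ms4a2, at 4.83 CPM, and for Tpsb2, at 10.1 CPM, and it also had Lgr5 at 171 CPM, within the saline range. Saline 48 h replicate 1 was far above its group for Mcpt4, at 1.04 CPM, and for Cma1, at 0.787 CPM, and it held the highest macrophage marker sum of that group, 422 CPM. Mcpt4 was high in saline 24 h replicate 4, at 1.23 CPM. Mcpt1 was high in DT 96 h replicate 1, at 4.79 CPM. Kit was high in DT 96 h replicate 3, at 117 CPM, the library with the highest Ms4a2 and Tpsb2 of that group. What set these libraries apart was not tested.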

How the results depend on the processing

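Ms4a2 and Tpsb2 were lower with DT under every setting run at each time, with log2 fold changes from -7.04 to -5.06, -6.09 to -3.22 and -5.59 to -3.70 for Ms4a2 and from -3.72 to -2.98, -3.58 to -1.93 and -3.10 to -2.48 for Tpsb2 at 24, 48 and 96 h. The low granule genes turned direction: without saline 48 h replicate 1 the values of Cpa3, Mcpt4 and Cma1 at 48 h were 0.64, 0.87 and 0.33, and without saline 96 h replicate 3 those of Mcpt4 and Cma1 at 96 h were 0.26 and 0.0227. Cpa3 at 96 h was 0.18 without saline 96 h replicate 2, and without DT 24 h replicate 2 Cpa3, Mcpt4 and Cma1 at 24 h were -1.35, -0.70 and -0.39. Over all single libraries left out, the lowest values of the first 5 were -1.51, -1.33 and -1.19 at 48 h and -1.22 and -1.80 at 96 h.

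Replicate numbers in the labels are shared between treatments, and the labels do not say whether these pair libraries. Same-number correlations of deviations ran from -0.47 to 0.15, which cannot show whether libraries were paired. With a replicate block 6540, 1717 and 589 genes were called at 24, 48 and 96 h, against 6765, 1979 and 704 without it, and 73 between saline at 48 and 24 h. The block left 1 other mast cell gene at 48 h in place of 2 and 1 gene between saline at 96 and 48 h in place of 2.

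Counts that moved by over 1.5 times were these. Without the low-count filter 4 other mast cell genes were called at 24 h, 1 at 48 h, 321 genes between saline at 96 and 24 h and 1 between 96 and 48 h. With DESeq2 1 marker was called at 48 h, and 163, 959 and 4 genes between saline times (48 against 24, 96 against 24, 96 against 48 h), where edgeR called 62, 563 and 2. With only the groups compared in the fit, 945 genes and 0 other mast cell genes were called at 48 h, and 285, 322 and 1 genes between saline times.

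Leaving out 1 library at a time gave 5961 to 6729 genes at 24 h, 1154 to 2741 at 48 h and 359 to 680 at 96 h, 6 to 9, 0 to 3 and 2 to 4 other mast cell genes, and 3 to 6, 0 to 1 and 0 to 1 markers. Between saline times it gave 38 to 87, 91 to 1218 and 0 to 2 genes. Of 36 calls of genes outside the 9 that were followed, 21 held in every such fit and 15 were lost in at least 1. Depth limits Cpa3, Mcpt4 and Cma1, which had 0 to 47 reads in a library.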
